A study of Mus musculus with 2 samples.

Results

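The adenylyl cyclases are the enzymes that turn ATP into the second messenger cyclic AMP (cAMP), and the 9 genes Adcy1 to Adcy9, which encode the membrane-bound forms, were followed in cultured mouse ureters that had or had not been exposed to NOGGIN. The genes were chosen as a family because Adcy7 had one of the lowest NOGGIN over control ratios on these arrays; the other 8 were taken by name. Probes were matched to the genes through the transcript accession in the scanner files, which gave 11 of the 39429 gene probes. Adcy5 had 3 probes and each of the others had 1. Of the 9 genes, 8 were among the 21316 genes tested, and Adcy8 was left out as too dim.

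The study compared ureters explanted at E12.5 from NMRI embryos, wildtype and of both sexes, and kept for 18 h on transwell membranes. The groups are cultures in medium with 10 µg/ml NOGGIN, an extracellular antagonist of bone morphogenetic protein (BMP) ligands, and control cultures in the same kind of medium without it. RNA of 1 NOGGIN culture and 1 control culture was hybridised together on each of 2 Agilent 2-colour arrays, with the dyes exchanged between replicates 1 and 2. The labels do not say how many embryos entered a culture or whether the replicates came from separate litters, so p-values measure the spread between these samples, which may be technical.

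Adenylyl cyclases sit in the plasma membrane downstream of G protein-coupled receptors. The stimulatory G protein alpha subunit switches all of them on, while the isoforms differ in their other inputs. Adcy1, Adcy3 and Adcy8 respond to calcium and calmodulin, Adcy2, Adcy4 and Adcy7 are further stimulated by G protein beta-gamma subunits, Adcy5 and Adcy6 are inhibited by calcium and by Gi proteins, and Adcy9 is the form that responds poorly to the plant compound forskolin. cAMP acts through protein kinase A, the EPAC exchange factors and cyclic nucleotide-gated channels, is removed by phosphodiesterases, and in smooth muscle is known for relaxing the cell.

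The promoters of the members that stood out are shown first, so that the values can be read beside their sequences. Sequences are from RefSeq (GRCm38.p6), 300 bases each, from 250 bases before to 50 after a transcript start, and run 5′ to 3′. Adcy7 has 3 annotated starts in that table. Adcy2 is shown for comparison as a family member of the same class with a ratio of the other sign. Capitals mark GGCGCC, an element bound by BMP-activated SMAD proteins, CAGAC or its reverse complement GTCTG, the short SMAD element, and TGACG or its reverse complement CGTCA, the short form of the cAMP response element.
Adcy7, chr8:88282742-88283041, plus strand: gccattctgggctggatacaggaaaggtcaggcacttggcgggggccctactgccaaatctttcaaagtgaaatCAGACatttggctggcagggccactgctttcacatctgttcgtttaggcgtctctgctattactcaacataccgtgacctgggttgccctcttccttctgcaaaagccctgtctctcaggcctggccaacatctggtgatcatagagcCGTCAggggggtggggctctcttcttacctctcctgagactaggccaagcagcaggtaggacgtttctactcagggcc
Adcy7, chr8:88288816-88289115, plus strand: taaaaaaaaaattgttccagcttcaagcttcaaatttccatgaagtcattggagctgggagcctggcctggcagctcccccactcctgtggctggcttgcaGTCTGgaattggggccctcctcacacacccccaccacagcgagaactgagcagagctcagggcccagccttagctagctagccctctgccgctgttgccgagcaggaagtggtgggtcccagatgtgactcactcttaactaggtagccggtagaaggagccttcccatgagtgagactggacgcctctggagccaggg
Adcy7, chr8:88293954-88294253, plus strand: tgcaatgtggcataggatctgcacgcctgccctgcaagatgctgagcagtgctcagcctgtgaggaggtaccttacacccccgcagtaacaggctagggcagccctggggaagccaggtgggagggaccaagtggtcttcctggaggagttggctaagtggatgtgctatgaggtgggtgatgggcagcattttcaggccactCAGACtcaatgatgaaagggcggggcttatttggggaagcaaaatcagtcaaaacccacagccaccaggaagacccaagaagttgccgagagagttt
Adcy2, chr13:68999492-68999791, minus strand: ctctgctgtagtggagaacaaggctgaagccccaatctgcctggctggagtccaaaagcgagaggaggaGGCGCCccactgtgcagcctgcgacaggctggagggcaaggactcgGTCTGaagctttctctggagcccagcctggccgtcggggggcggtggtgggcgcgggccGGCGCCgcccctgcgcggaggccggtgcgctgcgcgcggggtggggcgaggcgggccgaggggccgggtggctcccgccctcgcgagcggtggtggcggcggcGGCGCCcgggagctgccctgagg
The 3 Adcy7 windows held 1 CAGAC-type match each, 0 GGCGCC matches, and 1 TGACG-type match in the window at the first of these 3 starts. The annotated start of the gene, chr8:88272190, lies upstream of all 3 windows and has no window here. The Adcy2 window held 3 GGCGCC matches and 1 CAGAC-type match. Both strands were searched, and the short form is contained in the full element TGACGTCA, which none of the 10 windows of the family held. Over all 32851 promoter windows of the same length, 11.9% held GGCGCC, 49.6% CAGAC, 20.8% TGACG and 1.79% TGACGTCA. The Adcy7 windows had a GC content of 54.7%, 57% and 55.7%, against 75% for Adcy2 and a median of 52.7% over all windows. Windows for 7 of the 9 genes were found. Among the others, GGCGCC was also held by those of Adcy1 (2 matches), Adcy4 (1) and Adcy9 (1) and by each of Adcy3 (1). The Adcy9 window also held 1 TGACG-type and 1 CAGAC-type match, and 1 of the Adcy3 windows held 1 CAGAC-type match. The window of Adcy5 had 79% GC and 0 matches of any of these motifs. A match describes letters and is not evidence of binding.

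All ratios are NOGGIN over control by the dyes the labels give, a direction that the authors' deposited table contradicts. In the authors' deposited table, Adcy7 has a signed fold change of 4.70 on replicate 1 and 6.16 on replicate 2. Over 21789 bright probes the log2 values of that table and the label-oriented ratios of the same array had a Pearson r of -0.983 on replicate 1 and -0.984 on replicate 2. Id2 and Smad9, known as BMP targets and picked by name to look at the direction, were at log2 ratios of 2.73 ± 0.87 and 2.37 ± 0.20 (SD, n = 2), while the smooth muscle actin gene Acta2 was at -1.16 ± 0.23. Their deposited signed fold changes on replicates 1 and 2 were -4.19 and -10.5 for Id2, -5.255 and -6.74 for Smad9, and 2.30 and 2.22 for Acta2. An antagonist of BMP would be thought to lower BMP targets. Id2 and Smad9 had that sign in the deposited table and the opposite sign by the labels. Which direction is right is not settled by these files. With the other sign, every "higher" below becomes "lower" and the reverse, with sizes and p-values as they are. In whole explants, fewer cells of a type and less RNA per cell cannot be told apart.

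Adcy7, a beta-gamma-stimulated cyclase best known from blood and immune cells, was far lower in the NOGGIN-labelled cultures. Its normalised signal, on a linear intensity scale, was 814.1 and 813.8 in the NOGGIN cultures (replicates 1 and 2), against 3519 and 4585 in the control cultures. The groups did not overlap. After the scaling between arrays, both NOGGIN values were close together and the spread lay in the controls. This placing of the spread depends on that scaling, while the log2 ratios do not. The log2 ratio of NOGGIN over control was -2.11 on replicate 1 and -2.49 on replicate 2, a mean of -2.30 ± 0.27 (SD, n = 2), or 4.94-fold lower. All 4 spots of the probe were well above background in both channels of both arrays. Their log2 ratios lay between -2.22 and -2.01 on replicate 1 and between -2.56 and -2.43 on replicate 2. Thus the ranges of the arrays' spots did not overlap, and the difference between arrays was larger than that between spots. Ranked by mean ratio, Adcy7 stood at place 4 from the lowest of the 21316 genes. The gene was chosen by this very ratio, so these values are a description and no p-value is given for them. They also rest on a single probe, and other transcripts of the gene were not measured apart.

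**Figure D1:**
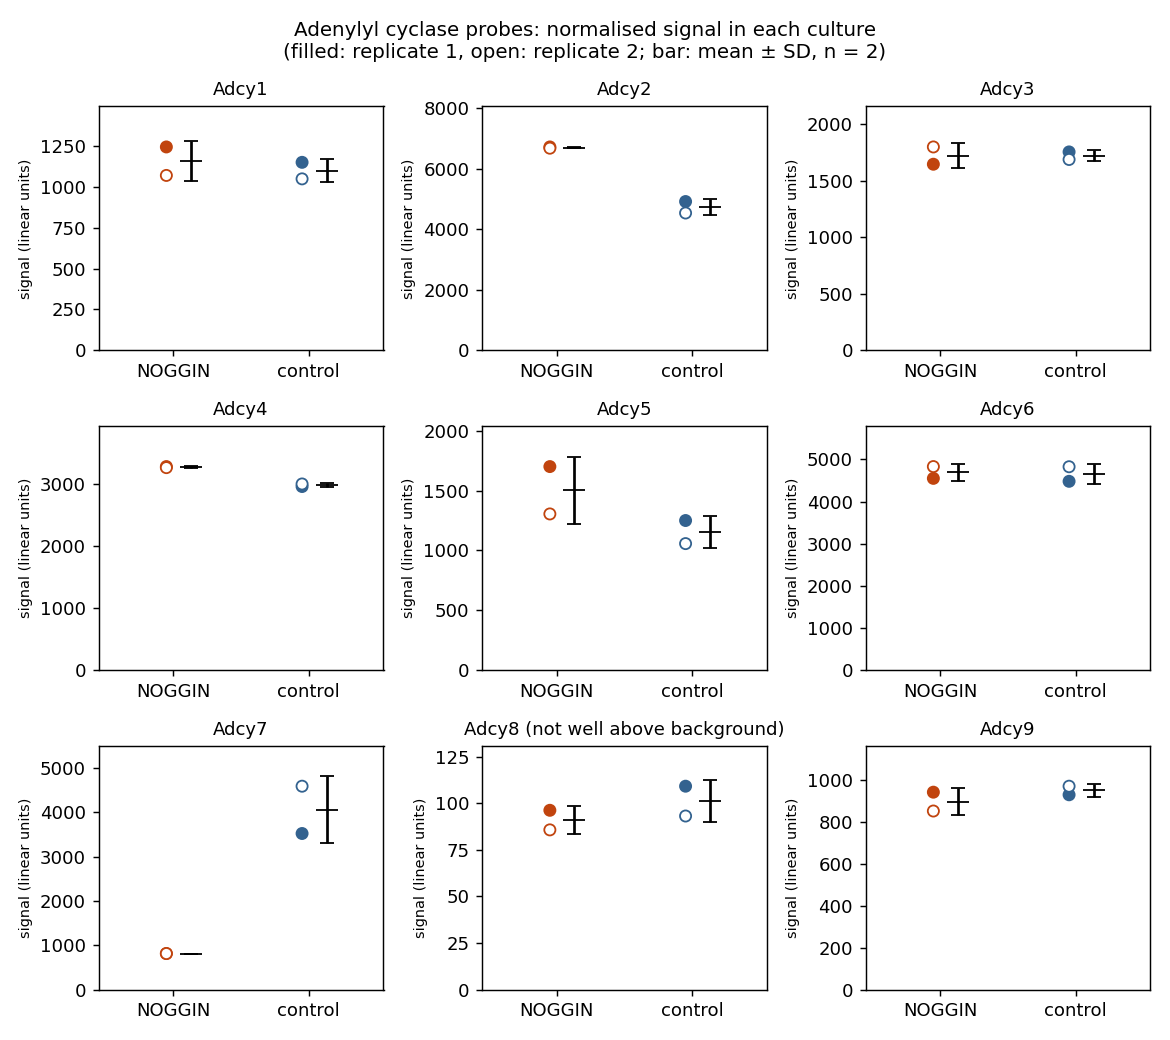
Normalised signal (linear intensity units, after loess and quantile scaling of the mean intensities) of the probe used for each adenylyl cyclase gene, in NOGGIN cultures (orange) and control cultures (blue), with filled points for replicate 1, open points for replicate 2, black bars for mean ± SD (n = 2) and an axis of its own in each panel. The Adcy7 values are near 814 in NOGGIN cultures, against 3519 and 4585 in controls.

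Adcy2, the beta-gamma-stimulated cyclase best known from brain, was the only other member called by the test, and it was higher. It gave signals of 6717 and 6676 in NOGGIN cultures, against 4915 and 4536 in control cultures. All NOGGIN values were above all control values. The log2 ratio was 0.45 on replicate 1 and 0.56 on replicate 2, a mean of 0.50 ± 0.076 (SD, n = 2), a 1.42-fold difference (adjusted p = 0.0241, limma over all 21316 genes). The 95% interval of the fit was 0.31 to 0.70. Every one of its 8 spots had a positive ratio, from 0.42 to 0.53 on replicate 1 and from 0.48 to 0.64 on replicate 2. Adcy2 lost its call where the arrays were centred on their medians without loess (adjusted p = 0.154) and with the deposited table's values, sign turned (adjusted p = 0.056).

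Adcy4, the remaining beta-gamma-stimulated form, which is known from blood vessels, gave 3274 and 3257 in NOGGIN cultures, against 2953 and 2994 in control cultures. The groups did not overlap, but the difference was small, with a log2 ratio of 0.14 ± 0.019 (SD, n = 2) that did not pass (adjusted p = 0.341, limma). Its 95% interval was -0.049 to 0.32, and 3 of its 4 spots on replicate 1 were usable. The 3 members of this class thus had ratios far below, above and near 0.

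Adcy5, a calcium- and Gi-inhibited cyclase known from striatum and heart, was measured with 3 separate probes. The brightest gave 1701 and 1305 in NOGGIN cultures, against 1250 and 1057 in control cultures. On each array the NOGGIN channel was higher, and the groups did not overlap. Its log2 ratio was 0.37 ± 0.10 (SD, n = 2), which missed the threshold narrowly (adjusted p = 0.0551, limma), with a 95% interval of 0.17 to 0.57. The other probes gave 0.41 ± 0.011 and 0.34 ± 0.086 (SD, n = 2). All of them were thus positive on both arrays, though probes to 1 transcript on the same RNA are not further replicates. Averaging the 3 probes brought the adjusted p to 0.0423, and the call also passed with no filter on dim probes (0.0431) and with the median of spots (0.0468).

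Adcy6, the other calcium- and Gi-inhibited form and a widely expressed one, gave 4549 and 4829 in NOGGIN cultures, against 4479 and 4825 in control cultures. The groups overlapped, and the log2 ratio was 0.012 ± 0.015 (SD, n = 2; adjusted p = 0.951, limma). The 95% interval, -0.17 to 0.20, lies below that of Adcy2 (0.31 to 0.70) and overlaps that of Adcy5 (0.17 to 0.57). No difference between members was tested.

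Among the calcium- and calmodulin-stimulated forms, Adcy1, which is best known from neurons, gave 1243 and 1069 in NOGGIN cultures, against 1149 and 1048 in control cultures. The groups overlapped (log2 ratio 0.071 ± 0.060, SD, n = 2; adjusted p = 0.643, limma; 95% interval -0.12 to 0.26). Adcy3, which serves odour signalling and primary cilia, gave 1648 and 1801 in NOGGIN cultures, against 1757 and 1690 in control cultures. Its log2 ratio was -0.092 on replicate 1 and 0.092 on replicate 2, so that the arrays went opposite ways and the mean was -0.0002 ± 0.13 (SD, n = 2; adjusted p = 0.999, limma; 95% interval -0.21 to 0.21). Adcy8, a brain form, was not well above background. Its signals were 96.2 and 85.7 in NOGGIN cultures, against 109.1 and 93.1 in control cultures, with at most 1 of 4 spots above background in any channel. No fold is given for it, and it was not tested.

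Adcy9, the forskolin-insensitive form, gave 941.3 and 851.5 in NOGGIN cultures, against 928.9 and 969.8 in control cultures. The groups overlapped, the arrays differed in sign (0.019 and -0.19), and the mean log2 ratio was -0.084 ± 0.15 (SD, n = 2; adjusted p = 0.627, limma; 95% interval -0.30 to 0.13).

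**Figure D2:**
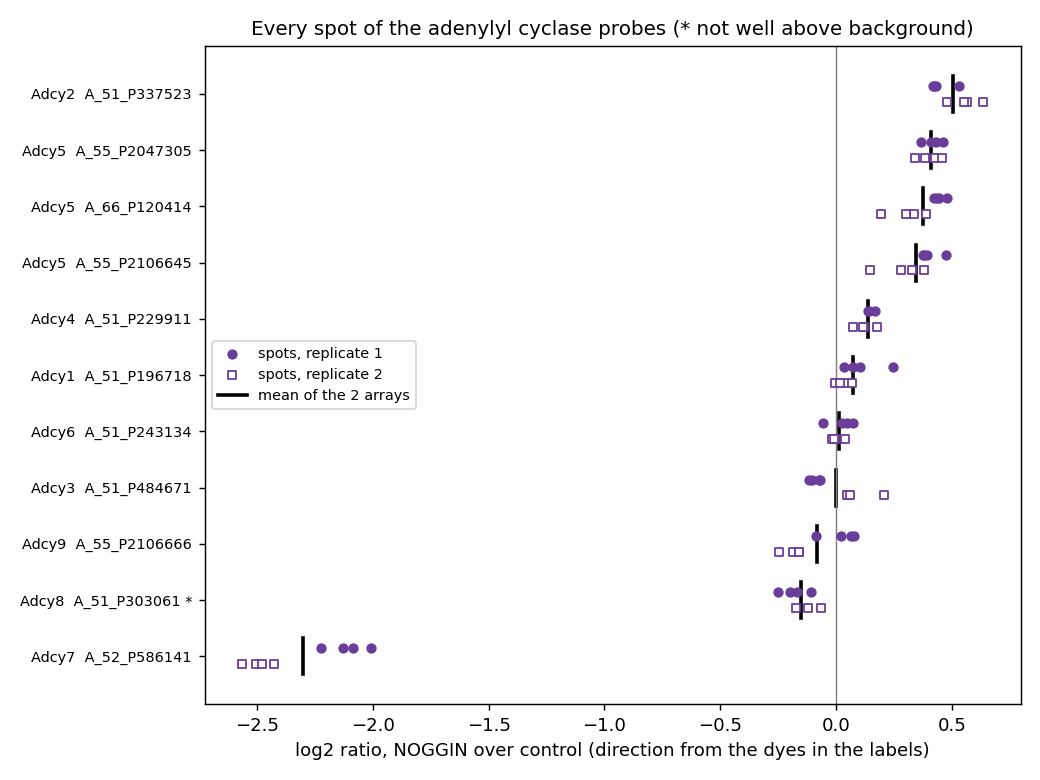
Log2 ratio of NOGGIN over control (horizontal axis) at every spot of the 11 adenylyl cyclase probes, ordered by their mean, with filled circles for replicate 1, open squares for replicate 2 and black bars for the mean of the arrays. The Adcy7 spots all lie between -2.56 and -2.01, while the 3 Adcy5 probes lie together on the positive side.

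Ordered from the highest log2 ratio to the lowest, the tested members ran Adcy2, Adcy5, Adcy4, Adcy1, Adcy6, Adcy3, Adcy9 and Adcy7. Neighbours were set apart where the gap of their means was larger than their summed SDs. Adcy7, chosen for its ratio, was left out of this. Among the other tested members it held only for Adcy5 over Adcy4, with a gap of 0.24 against 0.12. Adcy2 and Adcy5 did not differ beyond their spread (gap 0.13 against 0.18). Of the 7 tested members other than Adcy7, 1 was called, higher, and 0 were called lower at an adjusted p of 0.05 in limma, where 7.99% of all genes tested were called, 3.95% higher and 4.04% lower. At an unadjusted p under 0.05 the count was 2. In 3 of the 7 the groups did not overlap, which held for 51.2% of all genes tested. A change of at least 1.5-fold on both arrays with 1 sign was seen in 0 of the 7 and in 2.9% of all genes. The median of the 7 was 0.071, against 0.0008 over all genes. With 1 call among 7 genes, the members other than Adcy7 cannot be set apart from that background.

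**Figure D3:**
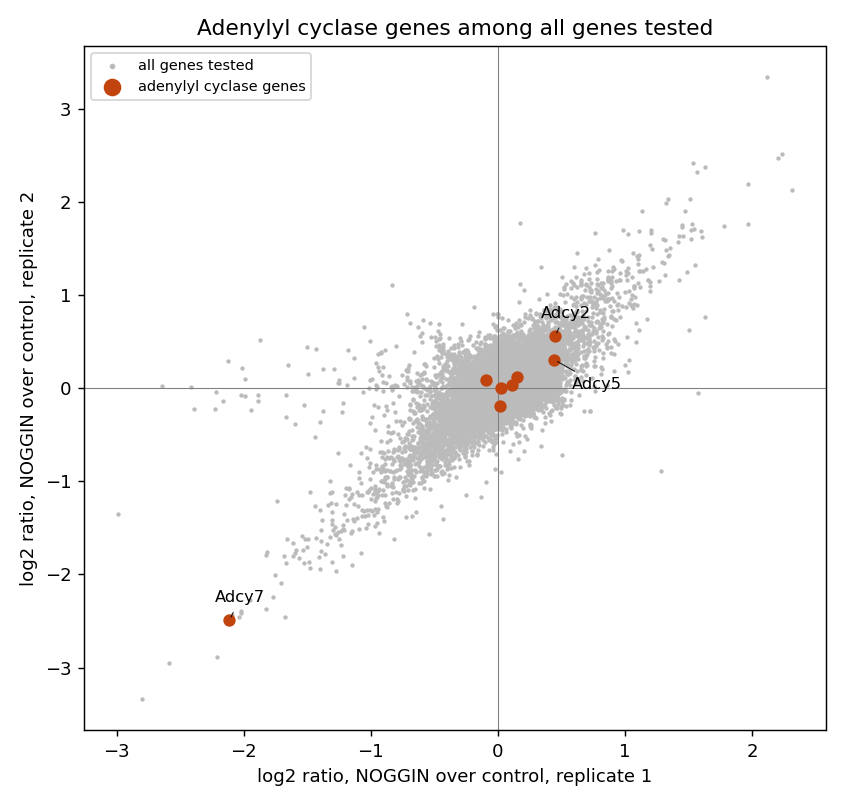
Log2 ratio of NOGGIN over control on replicate 1 (horizontal axis) and replicate 2 (vertical axis) for all 21316 genes tested (grey) and the 8 tested adenylyl cyclase genes (orange). Adcy7 lies at -2.11 and -2.49 and the other members lie near the centre, with Adcy2 and Adcy5 on its positive side.

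The genes with the pair of log2 ratios most like that of Adcy7, by Euclidean distance over the 2 arrays, were Bmp2, Tmem132c, Lrig1, Prmt8 and Lrrc55, at distances of 0.059, 0.087, 0.12, 0.13 and 0.27. Bmp2, which encodes a BMP ligand, had log2 ratios of -2.09 and -2.44. Its signals were 1076 and 1183 in NOGGIN cultures, against 4575 and 6417 in control cultures. With 2 points per gene, this likeness says only that the sizes were similar.

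Receptors that feed into the cyclases through the stimulatory G protein went both ways. Of 35 listed, 26 were tested, and 6 were higher, 3 lower and 17 did not pass, where 7.99% of all genes tested were called. The 6 include Htr7 and Tshr, which passed the filter on dim probes only through the NOGGIN channel, where they were higher. Ptger2, the prostaglandin E2 receptor EP2, was higher with a log2 ratio of 1.61 ± 0.13 (SD, n = 2, as for all ratios that follow; adjusted p = 0.00336, limma). Its signals were 998.1 and 748.5 in NOGGIN cultures, against 348.2 and 230.4 in control cultures. Adora2b, an adenosine receptor, was lower at -1.18 ± 0.037, and its other probe gave -0.95. The calcitonin receptor gene Calcr was higher by 0.83 ± 0.14 and the serotonin receptor gene Htr7 by 0.96 ± 0.015, though Htr7 was well above background on only 1 array in the control channel. The list median was -0.045. This list and those that follow were drawn up with results of these data known.

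Receptors that act on the cyclases through inhibitory G proteins also went both ways. Of 29 listed, 22 were tested, with 3 higher, 3 lower and 16 not passing, where 7.99% of all genes tested were called. The list median was 0.024. Mtnr1a, among the 3 lower, passed the filter on dim probes only through the control channel, where it was higher. Npy1r, a receptor for neuropeptide Y, was higher by 2.34 ± 0.19, with signals of 15030 and 14500 in NOGGIN cultures, against 3261 and 2613 in control cultures. The somatostatin receptor gene Sstr1 was higher by 1.19 ± 0.095. Sst, the gene of its ligand and a classical CREB target, was higher by 1.22 ± 0.16. Lpar1, a lysophosphatidic acid receptor, and Cnr1, a cannabinoid receptor, were lower at -0.65 ± 0.16 and -0.65 ± 0.23.

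For the G proteins themselves, the calls can be read beside the 7.99% of all genes tested that were called. Of 7 alpha subunit genes tested, 1 was lower, Gnaz at -0.43 ± 0.12, with its other probe at -0.20, and 0 were higher. Gnas, the gene of the stimulatory alpha subunit, gave 0.078 ± 0.13 and did not pass (adjusted p = 0.646, limma). Its other probes gave -0.25 and -0.38, so the probes of that locus disagree. Of 15 beta and gamma subunit genes 1 was higher, Gng8 by 0.68 ± 0.092, and 0 were lower. None of the 4 tested genes of the cyclase-associated proteins and the RIC8 chaperones passed. Adcy10, the soluble cyclase, was too dim to be tested.

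Phosphodiesterases, which break cAMP down, gave 3 higher and 1 lower among 16 tested, where 7.99% of all genes tested were called. The list median was 0.16. Pde4d was higher by 0.50 ± 0.11, Pde11a by 0.45 ± 0.11 and Pde3a by 0.44 ± 0.11, while Pde8b was lower at -0.59 ± 0.031. The probes agreed in direction and size for Pde11a (0.41 for its other probe) and not for Pde4d (-0.018 and 0.20) or Pde3a (0.099).

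Of the genes that act downstream of cAMP, those of protein kinase A gave 0 calls in limma among 9 tested. Over all genes tested, 7.99% were called. The catalytic subunit gene Prkaca was at -0.019 ± 0.069 (adjusted p = 0.918). The anchoring proteins of that kinase had 1 of 13 lower, the Pakap locus (Akap2) at -0.61 ± 0.022, with its 3 other probes between -0.46 and -0.41. Of 10 other effectors 2 were lower, the cAMP-binding membrane protein gene Bves at -0.70 ± 0.036 and Rapgef3, which encodes EPAC1, at -0.40 ± 0.091, and 0 were higher. The 8 CREB factors gave 0 calls. Creb1 was at -0.30 ± 0.065 (adjusted p = 0.087, limma), and its other probe gave 0.21. Of 16 tested genes known as CREB targets, 2 were higher, Sst and Pde4d (other Pde4d probes at -0.018 and 0.20), and 1 was lower. The lower one was Cga, whose signals of 85.1 and 84.5 in NOGGIN cultures were not well above background, against 131.3 and 130.3 in control cultures, at least 1.23-fold lower. The bound takes, per array, the higher of the probe's own signal and the lowest signal well above background. The median of the CREB target list was -0.006.

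In the cGMP pathway, the sister system built on guanylyl cyclases, 1 of 15 tested genes was higher and 2 were lower. Gucy1a2, a subunit of soluble guanylyl cyclase, was higher by 0.74 ± 0.037, with its other probes at 0.29 and 0.30. Npr3, the natriuretic peptide clearance receptor gene, was lower at -0.94 ± 0.17, and the kinase gene Prkg2 at -0.43 ± 0.13. Over the 12 lists, 29 of 158 tested genes (18.4%) were called, 15 higher and 14 lower, against 7.99% of all genes. Htr7, Tshr, Mtnr1a and Cga passed the filter on dim probes only through the group where they were higher. With both groups required to pass it, these 4 were not tested and the other 25 remained called, of 151 tested, against 7.93% of all genes. The lists were drawn up with results of these data known, and nothing particular to them is read from that count.

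**Figure D4:**
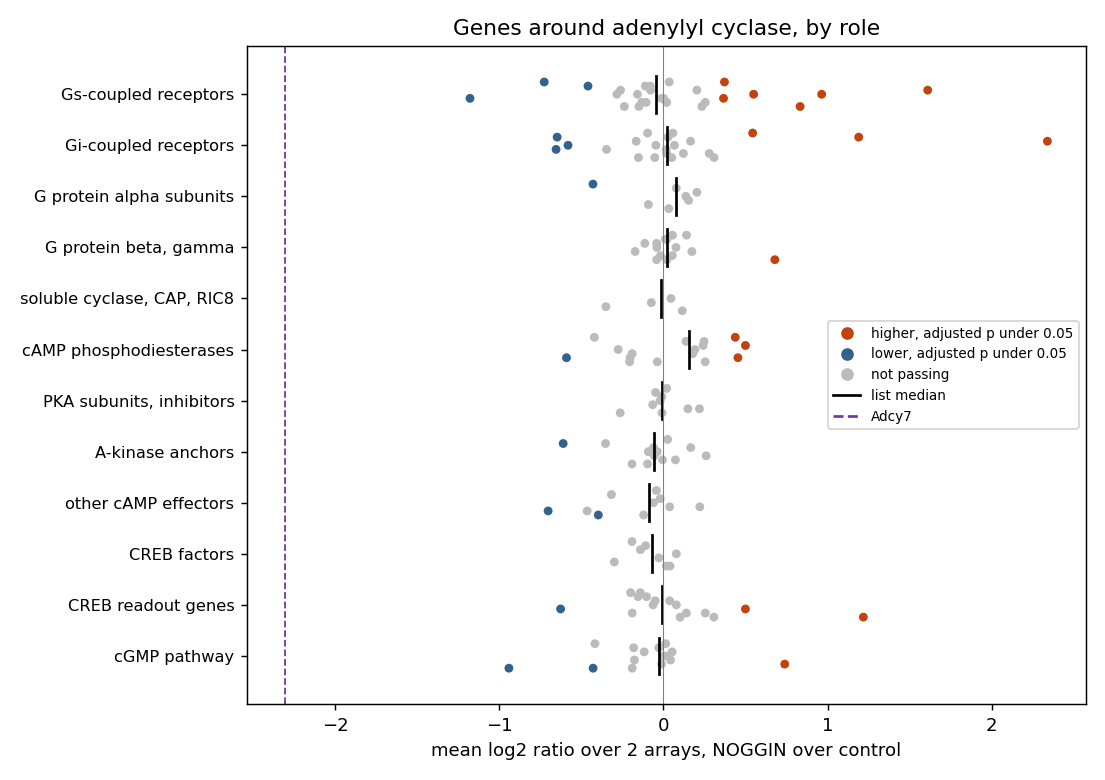
Mean log2 ratio of NOGGIN over control (horizontal axis, 2 arrays) for tested genes of 12 lists around adenylyl cyclase (rows), with orange and blue points past an adjusted p of 0.05 in limma as higher and lower, grey points not past it, black bars at list medians and a dashed line at Adcy7. The receptor lists spread widest, from -1.18 to 2.34, and the list medians lie between -0.091 and 0.16.

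Cell type markers are given beside Adcy7, since that gene is expressed in blood cells as well as in tissue. Of 12 macrophage markers, all tested, 0 passed in limma, where 7.99% of all genes tested were called. Their median log2 ratio was -0.27, of the same sign as Adcy7, with -0.46 on replicate 1 and -0.070 on replicate 2. Their summed signal was 35080 and 33930 in NOGGIN cultures, against 46820 and 33810 in control cultures. Within arrays, the NOGGIN sum was thus lower on replicate 1 and nearly level on replicate 2. The groups overlapped, and the controls of replicates 1 and 2 differed. The part of these cells in the Adcy7 ratio was not tested. Of 6 platelet and megakaryocyte markers 5 were tested and 0 passed (3219 and 3333 in NOGGIN cultures, against 3812 and 3918 in control cultures). These sums did not overlap and were lower in NOGGIN cultures, with a median log2 ratio of -0.19. Of 10 endothelial markers 0 passed (48180 and 54750, against 44770 and 48160), with sums that did not overlap and were higher in NOGGIN cultures. Their median log2 ratio was 0.12. Smooth muscle markers went the way of Adcy7, with 6 of 8 lower and a median log2 ratio of -0.92. Their summed signal was 244300 and 255000 in NOGGIN cultures, against 506900 and 497200 in control cultures, and the part this has in the Adcy7 ratio was not tested. Lmod1, among the 6 called lower, passed the filter on dim probes only through the control channel, where it was higher. Of 10 ureter epithelium markers 0 passed, with a median of 0.14. Of 8 ureter mesenchyme markers 2 were higher, Tbx18 and Tcf21, and 2 lower, Col3a1 and Wt1. Of 10 neural markers 1 was higher, Stmn2, and of 5 tested erythroid markers 1, Epor. The epithelial and mesenchymal markers were all above the filter on dim probes, as the label of the tissue has it.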

How the data were processed

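Each sample is 1 Agilent 2-colour array with RNA of a NOGGIN and a control culture. Total RNA (200 ng) was amplified and labelled with one of a pair of fluorescent dyes, read as green and red, per the labels' protocols. The deposited scanner files hold spot intensity values on a linear scale, with background and quality flags, and the submitters' processing notes name Agilent Feature Extraction 10.7.3.1. Their log10 ratio column is the software's own, per the file headers, and was not used. The deposited series table holds a signed fold change per probe, named a score here, with a median of 1 in each column; its normalisation is not stated, and it tracks the label-oriented ratios of its array with the opposite sign.

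Each probe had 4 spots per array. Between 67.3% and 74.3% of gene spots were well above background by channel, 3.69% on each array were flagged as outliers and left out, and 0 were saturated. Precision is limited by having 2 arrays. Background was corrected with normexp (offset 50) and each array normalised with loess, in which control, outlier and filler spots had weight 0. Spots were averaged. Probes were kept if, in at least 1 condition, each array had a share above 0.5 of their spots well above background (26712 probes), and the brightest probe stood for a gene. Accessions gave a symbol for 28328 of 39429 probes through a RefSeq table of GRCm38.p6. Signals per culture are those after loess and Aquantile scaling. Log2 ratios were tested against 0 with limma 3.58.1 in R 4.3.3 with Benjamini-Hochberg adjustment over all genes, two-sided,, with 1 residual and 4.13 prior degrees of freedom. The steps were tested on simulated data.

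The genes named are the members, up to 4 leading called genes of each list, Gnas, Prkaca, Creb1 and Npy1r, the 5 genes most like Adcy7, and Acta2, Id2 and Smad9 for the direction. The marker genes named were chosen after their values were seen. Members and lists were chosen with earlier results of these data known. The alternatives were 12 other forms of background correction, normalisation, filter, summary, source and test, and each array alone; 1 of them, Aquantile, cannot move a log ratio.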

Additional observations from a re-analysis of the deposited data

How the results depend on the processing

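Of the 12 alternatives, Aquantile scaling leaves log ratios as they are and is not counted further. The Adcy7 ratio was recomputed by 5 of the others and lay between -2.42 and -2.30, and the rest, the deposited table apart, leave it unchanged by construction. The deposited table gave -2.43 only after its sign was turned, so that value says nothing of direction, which comes from the labels throughout. Adcy7 was at -2.49 without replicate 1 and -2.11 without replicate 2, values with no test. Centring each array on its median in place of loess left 0 of 21316 genes called in limma (3568 at an unadjusted p under 0.05), 0 pathway genes (48 unadjusted) and 0 members other than Adcy7 (2 unadjusted), against 1704, 29 and 1 called in the report. With the deposited table's values, sign turned, 0 of those members were called (2 unadjusted). With no filter on dim probes, with the median of spots or with the mean of a gene's probes, 2 were called, Adcy2 and Adcy5. Adcy2 passed under 9 of 11 alternatives (adjusted p from 0.0128 to 0.154, limma) and Adcy5 under 3 (0.0423 to 0.219). The cause was not tested. Adcy1, Adcy3, Adcy4, Adcy6 and Adcy9 passed under 0 of the 11, the lowest adjusted p being 0.27 for Adcy4. Filler spots, a probe repeated over the array, were given weight 0 in loess after a run with weight 1 had been seen; with that alternative, chosen after seeing the data, 1481 genes, 25 pathway genes and 1 other member (Adcy2, adjusted p = 0.0285) were called, and Adcy7 was at -2.30. Signal over background limits Adcy8 and Adcy10, which were too dim to compare. 1 probe each for all members but Adcy5 leaves their transcripts unresolved.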
